A study of Mus musculus with 2 samples.

Results

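The genes described here are 10 host genes of small nucleolar RNAs (snoRNAs): Gas5, Snhg1, Snhg3, Snhg5, Snhg6, Snhg8, Snhg12, Epb41l4aos, Zfas1 and Taf1d. They were taken by gene name from the 55536 annotated genes of the tables, together with all 95 of their transcript models. Taf1d is protein-coding and the other 9 are annotated as non-coding. All 10 were detected in the nucleoplasmic fraction of Lipid A-treated macrophages, over a 24.6-fold range of mean level.

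The libraries came from macrophages grown from the bone marrow of C57BL/6J mice and treated with Lipid A, the TLR4-binding portion of lipopolysaccharide, at 100 ng/ml for 40 min. Total RNA of the nucleoplasmic fraction was depleted of ribosomal RNA and sequenced in 2 libraries, labelled biological replicates 1 and 2 of the same single group. The labels give both libraries 1 donor identifier, so their spread may be smaller than that between mice, and they give neither sex nor age. The starting amount of RNA was 1 µg for replicate 1 but 500 ng for replicate 2, and these effects cannot be told apart. With 1 group and no untreated library analysed here, the values are levels and not responses, and no test was made.

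Most vertebrate snoRNAs are not transcribed on their own. They lie in the introns of host genes, and are freed when the host transcript is spliced, its intron lariat is opened and exonucleases trim the intron down to the part protected by proteins. Box C/D snoRNAs guide ribose methylation and H/ACA snoRNAs guide pseudouridylation of ribosomal RNA, mostly in the nucleolus. The spliced exons of a non-coding host such as Gas5 or Snhg1 carry no long reading frame and are degraded in the cytoplasm by nonsense-mediated decay when translated. Many hosts start within a run of pyrimidines, as ribosomal protein genes do. The nucleus is where the unspliced host, the intron and the snoRNA can all be present.

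Expected counts (read fragments assigned to a gene, which need not be whole) totalled 19630046 in replicate 1 and 18434601 in replicate 2. The hosts held 0.0294% and 0.0274% of the counts on annotated genes. Fragments averaged 206 and 230 nt, or 164 and 236 nt by the separate values derived from the FASTQ files. The 10 macrophage markers examined were all detected at a median level of 120 ± 37.9 TPM (the authors' length-corrected transcript abundance; SD, n = 2). Of 19 markers of T cells, B cells, neutrophils, erythroid cells, fibroblasts and dendritic cells, 1 was detected, Cd4 at 22.2 and 16.1 TPM. Cd3e, Elane, Hbb-bs and Col3a1 were among those at 0 in both libraries. In the values derived from the FASTQ files, Cd3d also reached 1 TPM in both libraries, at 2.38 and 4.28.

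Of the 1558 snoRNA and scaRNA genes of the annotation, 41 lay wholly inside a host on its strand. Gas5 held 10, Snhg1 and Taf1d 8 each, Snhg12 5, Zfas1 3, Snhg3 and Snhg5 2 each, and Snhg6, Snhg8 and Epb41l4aos 1 each. These counts are of annotated genes, some of which are overlapping copies of the same snoRNA, as for Snord80 in Gas5 and Snora16a in Snhg12. The 7 sequences below, from mm10, were chosen because the results turn on them. Snord22, Snora73b and Snora73a were the 3 with more than a few expected counts, Snord47 and Snord12 are short box C/D snoRNAs, and Snora24 and Gm23455 lie inside an exon of the model of their host with the highest mean TPM (for Snora24 this model led in replicate 2 alone). Sequences run 5′ to 3′, with box C (TGATGA) and box D (CTGA), or the ACA placed 3 bases from the end, in capitals where found.
Snord22 (Snhg1, chr19:8725866-8725991, + strand): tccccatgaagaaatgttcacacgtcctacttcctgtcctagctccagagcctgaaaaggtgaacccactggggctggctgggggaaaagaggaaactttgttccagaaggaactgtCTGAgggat
Snora73b (Snhg3, chr4:132352322-132352526, - strand): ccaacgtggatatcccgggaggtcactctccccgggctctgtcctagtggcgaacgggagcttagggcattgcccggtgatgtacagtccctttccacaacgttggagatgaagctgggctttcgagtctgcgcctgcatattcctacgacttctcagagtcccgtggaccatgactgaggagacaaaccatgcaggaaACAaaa
Snora73a (Snhg3, chr4:132352775-132352979, - strand): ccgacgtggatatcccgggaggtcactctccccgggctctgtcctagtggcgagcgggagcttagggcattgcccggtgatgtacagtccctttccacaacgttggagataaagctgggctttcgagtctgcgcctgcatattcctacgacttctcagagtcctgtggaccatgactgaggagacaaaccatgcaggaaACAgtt
Snord47 (Gas5, chr1:161038082-161038158, + strand): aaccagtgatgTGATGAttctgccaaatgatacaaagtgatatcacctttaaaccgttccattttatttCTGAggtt
Snord12 (Zfas1, chr2:167065276-167065365, + strand): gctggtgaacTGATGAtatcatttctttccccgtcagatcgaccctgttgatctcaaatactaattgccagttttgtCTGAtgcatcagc
Snora24 (Snhg8, chr3:123507937-123508066, - strand): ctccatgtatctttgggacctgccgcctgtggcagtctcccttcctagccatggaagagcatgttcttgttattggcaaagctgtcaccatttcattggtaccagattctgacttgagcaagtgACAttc
Gm23455 (Taf1d, chr9:15316489-15316588, + strand): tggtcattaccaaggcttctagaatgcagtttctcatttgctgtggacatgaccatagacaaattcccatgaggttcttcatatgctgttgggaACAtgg

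The motif search looked for TGATGA in the first 20 and CTGA in the last 20 bases of the transcribed strand, and for ACA exactly 3 bases from the end. Both boxes were present in 22 of the 41 snoRNAs (53.7%), against 314 of all 1558 (20.2%). The ACA was present in 14 (34.1%), against 301 (19.3%). 3 held both patterns and 8 neither. A match describes letters only. The snoRNAs of Gas5, Snhg1, Snhg5, Snhg6 and Zfas1 were 60 to 126 nt long, and those of Snhg3, Snhg8 and Epb41l4aos 130 to 205 nt. Snhg12 and Taf1d held long and short ones. In models that place the snoRNA in an intron, the distance from its end to the next exon had a median of 75 nt and lay between 50 and 100 nt for 32 of 41.

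Taf1d, Gas5 and Zfas1 led the hosts and together held 76.5% of their summed TPM in replicate 1 and 78.4% in replicate 2. Detection required 1 TPM or more in each replicate, a level that 19.4% of all genes, 40.0% of protein-coding genes and 7.19% of long non-coding genes reached. By that rule all 10 hosts were detected, and all 10 were also detected in the separate tables made from the FASTQ files, as were 25.0% of all genes. Among detected protein-coding genes the median was 7.42 TPM, and 5 hosts lay above it (4 in the FASTQ-derived tables, where that median was 5.18). The median detected long non-coding gene had 3.75 TPM, and 9 hosts lay above it.

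**Figure D1:**
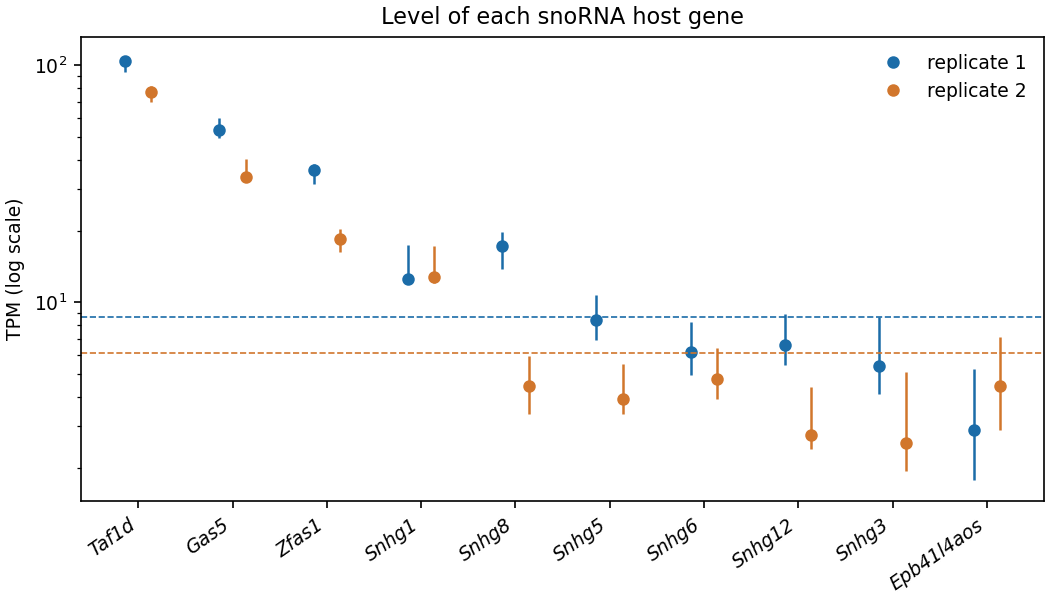
TPM of each host gene in replicates 1 and 2 on a log axis, ordered by mean, with the deposited credibility interval of each library (vertical lines) and the median detected protein-coding gene of each replicate (dashed lines, 8.64 and 6.12 TPM). Taf1d, Gas5, Zfas1 and Snhg1 lie above the dashed line in both replicates, and Snhg8 is the host whose points lie farthest apart on this axis.

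Taf1d (ENSMUSG00000031939.16, chr9:15306214-15316991, + strand) encodes a subunit of selectivity factor SL1, which recruits RNA polymerase I to ribosomal DNA. It had 104 TPM in replicate 1 and 77.1 in replicate 2 (90.4 ± 18.8, SD, n = 2), from 3561 and 3286 expected counts. It was the highest host, at percentile 95.3 of detected protein-coding genes, and its lower replicate exceeded the higher replicate of every other host.

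Among the hosts that hold box C/D snoRNAs alone, Gas5 (ENSMUSG00000053332.13, chr1:161034422-161038539, + strand) was the highest. Its name stands for growth arrest-specific, after its accumulation in growth-arrested cells, and its spliced RNA has been described as a decoy for the glucocorticoid receptor. It had 53.2 and 33.8 TPM (43.5 ± 13.7), from 777 and 668 counts. Zfas1 (ENSMUSG00000074578.13, chr2:167062934-167065862, + strand), which starts head to head with Znfx1, had 36.2 and 18.5 TPM (27.4 ± 12.5). The ranges of Gas5 and Zfas1 overlapped, although Gas5 was above Zfas1 within each replicate.

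Snhg1 (ENSMUSG00000108414.1, chr19:8723475-8726443, + strand), the host of Snord22, had 12.5 and 12.8 TPM (12.6 ± 0.21), the closest replicates of any host on this scale. By the log2 count ratio given below, the replicates of Taf1d were closer (-0.02, against 0.12 for Snhg1). The higher replicate of Snhg1 was below the lower replicate of Zfas1, at 18.5 TPM. Snhg5 (ENSMUSG00000097195.9, chr9:88521050-88522929, - strand), the host of the Snord50 snoRNAs, had 8.44 and 3.92 TPM (6.18 ± 3.20). Snhg6 (ENSMUSG00000098234.7, chr1:9941959-9944118, - strand), the host of Snord87, had 6.19 and 4.76 TPM (5.48 ± 1.01). Apart from the gaps below Taf1d and below Zfas1, the replicate ranges of all neighbours in the order of means overlapped.

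The 3 hosts of H/ACA snoRNAs alone had mean levels between 3.68 and 10.8 TPM. Snhg8 (ENSMUSG00000104960.1, chr3:123507552-123508404, - strand), the host of Snora24, had 17.2 TPM in replicate 1 and 4.46 in replicate 2 (10.8 ± 9.03), from 148 and 57 counts. Snhg3 (ENSMUSG00000085241.7, chr4:132348014-132353686, - strand), the host of both Snora73 copies, had 5.39 and 2.56 TPM (3.98 ± 2.00). Its level rested on 33.6 and 17.2 counts. Epb41l4aos (ENSMUSG00000087590.2, chr18:33794892-33795986, + strand), named for lying beside Epb41l4a on the other strand, was the lowest by mean at 2.90 and 4.45 TPM (3.68 ± 1.10), from 14 and 22 counts. Snhg12 (ENSMUSG00000086290.9, chr4:132308623-132311024, + strand), which holds snoRNAs of both kinds, had 6.60 and 2.75 TPM (4.68 ± 2.72). The depth behind these values differed widely: the deposited credibility interval spanned between 14.2% of the posterior mean TPM (Taf1d) and 99.9% (Epb41l4aos in replicate 1).

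Between replicates, 5 hosts differed by no more than counting error and 5 were lower in replicate 2, Snhg8 by the most. TPM was lower in replicate 2 for 8 of 10, but the median log2 TPM ratio of all detected genes was itself -0.41, so replicates were compared on counts. The log2 ratio of TMM-scaled CPM (counts scaled to library size), replicate 2 to replicate 1, had a median of -0.19 over the hosts and -0.004 over all genes tested. It was below 0 for 7 of 10 hosts, against 50.5% of 14527 genes and 63.0% of 1366 long non-coding genes. In the FASTQ-derived counts it was below 0 for 8 of 10, against 49.3% of genes. The 95% counting interval of the ratio (exact Clopper-Pearson, covering counting error only) lay wholly below 0 for 5 hosts, against 19.5% of all genes and 23.9% of long non-coding genes, and wholly above 0 for 0 hosts (19.5% of all genes). The common biological coefficient of variation over all genes was 0.176.

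Snhg8 stood lowest, with 148 and 57 counts and a log2 ratio of -1.25 (interval -1.75 to -0.83). A ratio of -1 or less was found in 3.22% of genes. The FASTQ-derived counts gave -0.998. The other 4 hosts with an interval below 0 were Zfas1 at -0.26 (-0.44 to -0.08), Snhg5 at -0.46 (-0.87 to -0.06), Snhg12 at -0.57 (-1.05 to -0.12) and Snhg3 at -0.83 (-1.83 to -0.02). For Taf1d the ratio was -0.02 (-0.09 to 0.05) and for Gas5 -0.12 (-0.27 to 0.03), the 2 hosts with the most counts. Snhg1 (0.12), Snhg6 (0.18) and Epb41l4aos (0.67, interval -0.28 to 1.83) also had intervals that held 0. RNA input and fragment length moved with the replicate, and their part in these ratios was not tested. In such bulk RNA, fewer cells expressing a gene and less RNA per cell cannot be told apart.

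**Figure D2:**
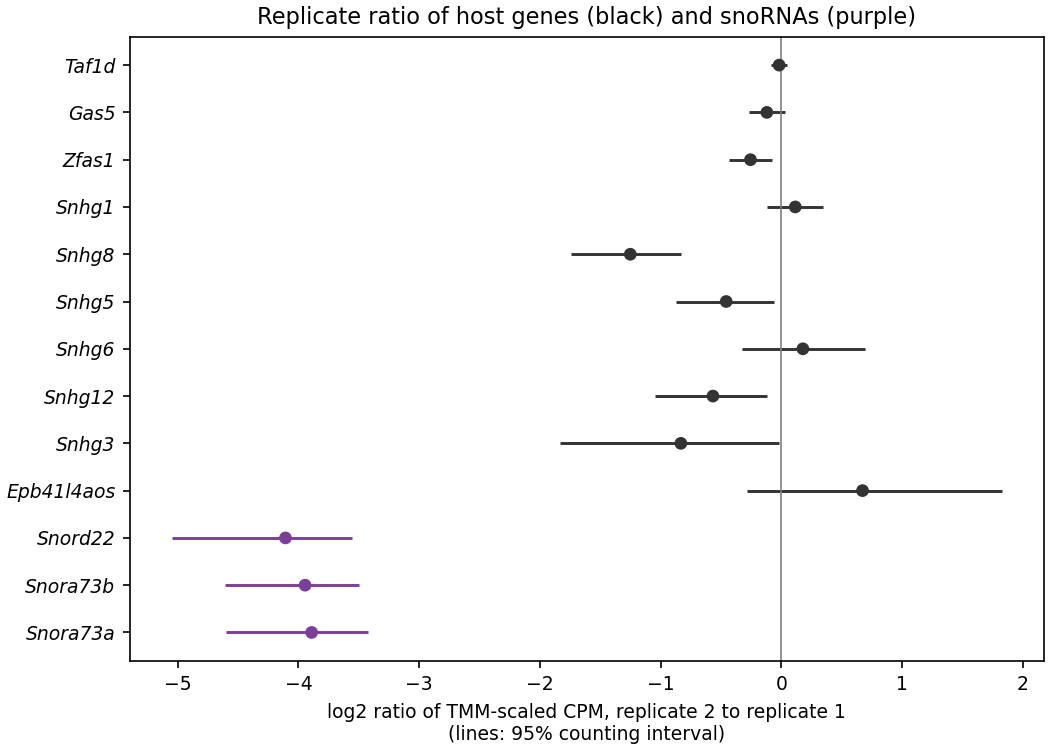
Log2 ratio of TMM-scaled CPM, replicate 2 to replicate 1, for the 10 hosts (black) and the 3 snoRNAs inside them that passed a mean expected count of 10 (purple), with 95% counting intervals (lines). The hosts lie between -1.25 and 0.67, and the snoRNAs lie between -4.11 and -3.89.

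Transcript models that keep a snoRNA inside an exon, as an unspliced host RNA would, took most of the summed TPM of the 10 hosts, but not of the 9 hosts other than Taf1d. Of the 95 models, 48 are annotated as retained-intron transcripts, 36 of which contain a whole snoRNA gene in an exon, and 46 models of any class do so. Retained-intron models held 43.3% of the hosts' summed transcript TPM in replicate 1 and 41.0% in replicate 2 (42.2% ± 1.61). Models holding a snoRNA took 57.0% and 58.3% of TPM. Over the 9 non-coding hosts, without Taf1d, retained-intron models held 50.8% and 51.7% and snoRNA-holding models 39.8% and 37.9% of TPM, and 62.4% and 63.7% of counts. By expected counts, which are not corrected for length, the shares were 77.4% and 78.5% for snoRNA-holding and 74.8% and 75.0% for retained-intron models. For comparison, the 5736 detected protein-coding genes with a retained-intron model had 35.7% and 34.6% of their TPM and 24.9% and 24.1% of their counts in such models. In the 54 detected long non-coding genes with one, hosts included, the shares were 42.7% and 40.0% of TPM and 55.3% and 56.2% of counts. The sets are unlike, because the hosts' shares also include Snhg3, Snhg6, Snhg12 and Epb41l4aos, which have no retained-intron model. The assignment of reads among overlapping models is an estimate of the authors' software, and no junction reads were available here.

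**Figure D3:**
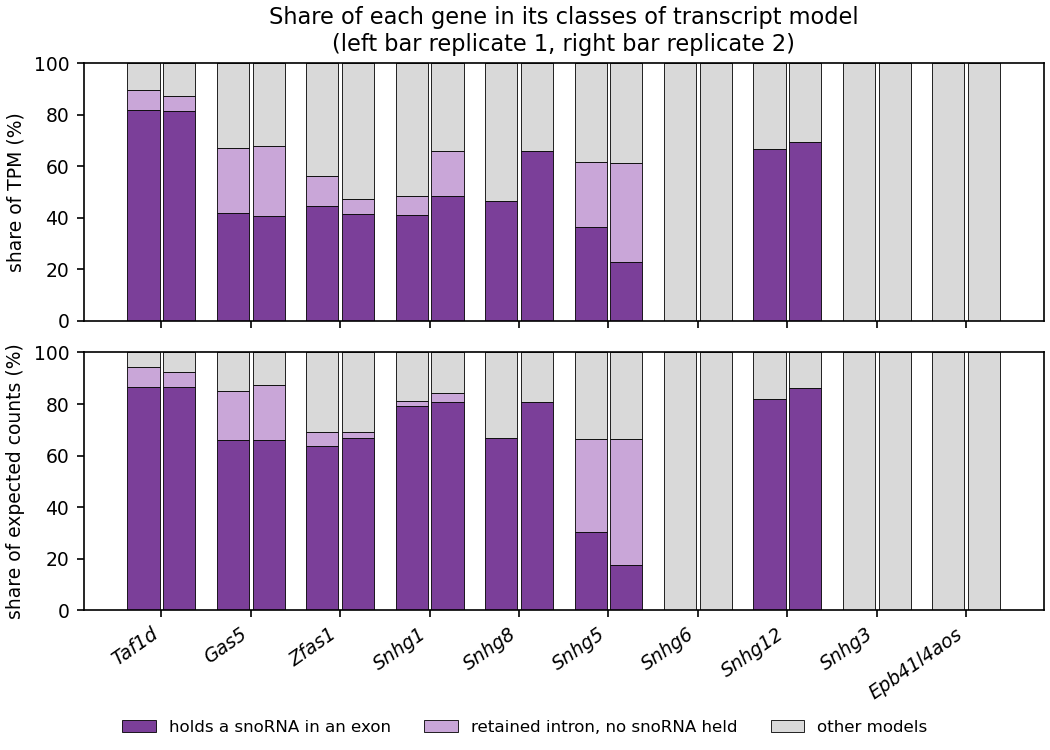
Share of each host's TPM (top) and expected counts (bottom) in models that hold a whole snoRNA in an exon (dark purple), in retained-intron models that hold none (light purple) and in other models (grey), with replicate 1 as the left and replicate 2 as the right bar. Snhg6, Snhg3 and Epb41l4aos have no model of the first 2 kinds, and the purple share is larger by counts than by TPM in Taf1d, Gas5, Zfas1, Snhg1, Snhg8, Snhg5 and Snhg12.

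Taf1d had the largest snoRNA-holding share, 81.8% and 81.5% of TPM, and almost none of its signal in coding models. Its 5 protein-coding models took 2.99% and 2.57% of its TPM and 0.838% and 0.689% of its counts, and its 4 nonsense-mediated decay models 11.2% and 13.5% of TPM. The leading model by TPM was Taf1d-206, a processed transcript of 491 nt and 2 exons, which contains Gm23455, printed above. It took 53.2% and 55.2% of TPM but only 9.51% and 9.68% of counts. By counts the retained-intron model Taf1d-203 led, which is 4881 nt long and holds 5 snoRNAs, with 2437 and 2249 counts (24.2 and 16.9 TPM). Without Taf1d-206, Taf1d would stand at 41.5 ± 9.84 TPM, beside 43.5 ± 13.7 for the whole of Gas5 (an alternative chosen after seeing the data). Gas5 keeps its own leading model there, Gas5-224 at 14.5 and 10.8 TPM, so the comparison does not decide which host leads.

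In Gas5, 20 of 25 models are retained-intron transcripts, and they took 67.3% and 68.0% of TPM and 85.2% and 87.4% of counts. The leading model by TPM was the spliced Gas5-224 (12 exons, 502 nt, holding no snoRNA), at 27.3% and 32.0%. By counts it was Gas5-218, a retained-intron model of 2556 nt that keeps 6 snoRNAs, with 236 and 217 counts against 92.4 and 84.2 for Gas5-224. Thus the spliced model led per length and the intron-bearing one by reads, in both replicates.

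In Snhg1 the retained-intron share was 48.6% and 66.0% of TPM, and 81.1% and 84.4% of counts. Its leading model was Snhg1-211, a spliced model of 605 nt, at 39.6% and 28.2% of TPM. The FASTQ-derived tables gave that model 4.94% and 3.68% and put another spliced model, Snhg1-207, first at 61.3% and 47.6%. The tables thus differed in which spliced model led. In Zfas1 the 4 retained-intron models took 56.2% and 47.2% of TPM, and the spliced Zfas1-205 43.8% and 52.8%. Snhg5 had 61.9% and 61.5% in retained-intron models, led by Snhg5-206 at 25.6% and 38.8%.

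Snhg8 showed a split between its models. The retained-intron model Snhg8-202, a single exon of 776 nt that holds Snora24, had 98.6 counts in replicate 1 and 45.9 in replicate 2. The spliced Snhg8-201 (3 exons, 448 nt) had 43.4 and 5.25 counts. Both were lower in replicate 2, and the retained-intron share of TPM was 46.7% and 65.9%. By TPM Snhg8-201 led in replicate 1, at 48.3%, and Snhg8-202 in replicate 2. In the FASTQ-derived tables the retained-intron share was 46.4% and 57.1%. Snhg8-201 had 57.0 and 24.6 counts there, a smaller fall, and Snhg8-202 had 111 and 82.4.

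Snhg12 has no model labelled as a retained intron, yet 8 of its 10 models, all annotated as lincRNA, hold a snoRNA, and these took 66.9% and 69.3% of its TPM. By mean its leading model was the spliced Snhg12-206 at 33.1% and 30.7%, but in replicate 2 the snoRNA-holding Snhg12-204 stood above it at 31.8% (7.11% in replicate 1). The replicates were less alike in the FASTQ-derived tables, where snoRNA-holding models took 83.4% and 57.9% and Snhg12-206 took 16.6% and 42.1%. Snhg3, Snhg6 and Epb41l4aos have no annotated model that holds a snoRNA, so the share could not be measured for them. Their leading spliced models took 59.3% and 81.2% (Snhg3-204), 55.5% and 72.7% (Snhg6-205), and 100.0% and 76.0% (Epb41l4aos-201) of TPM.

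The snoRNAs themselves were mostly without counts in the alignment-based tables. Expected counts were given to 9 of the 41 snoRNAs inside hosts, against 7.38% of all annotated snoRNA genes. None of the 26 shorter than 100 nt had an expected count, nor did any of the 462 of that length in the annotation (0.00%), and all 26 are listed there with an effective length of 0 in both libraries. Of the 15 of at least 100 nt, 9 had counts, against 10.5% of 1096 such genes. The 100 nt limit was chosen after the values were seen.

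The FASTQ-derived tables gave counts to 19 of the 41, against 28.4% of all annotated snoRNA genes, and to 8 of the 26 short ones, against 23.2%. Among the short ones were Snord47, printed above, with 24.3 counts in replicate 1 and 0 in replicate 2, and Gm22357 of Gas5 with 12.7 and 0 (both named after their values were seen). Snord12, Snora24 and Gm23455 were at 0 in both libraries in both kinds of table. A listed 0 at an effective length of 0 is no measurement of the snoRNA, and no upper limit is given for it. The labelled size range of the fragments was 250 to 400, and its part in these zeros was not tested.

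Snora73b, Snora73a and Snord22 held 98.9% of the 1343 expected counts on snoRNAs inside hosts in replicate 1 and 95.2% of the 78.2 in replicate 2. Snora73 (U17) takes part in cleavage of the ribosomal RNA precursor, and Snord22 (U22) in maturation of the small ribosomal subunit RNA. Snora73b had 524 and 30.1 counts, in the order of the replicates, and a log2 ratio of -3.94 (interval -4.61 to -3.50). Snora73a had 457 and 27.5, a ratio of -3.89 (-4.60 to -3.42). Snord22 had 347 and 16.9, a ratio of -4.11 (-5.05 to -3.55). All 3 were lower in replicate 2, with ratios below those of their hosts Snhg3 (-0.83) and Snhg1 (0.12). Of the 42 snoRNA genes tested, 81.0% had a ratio below 0 and 64.3% a ratio of -1 or less.

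**Figure D4:**
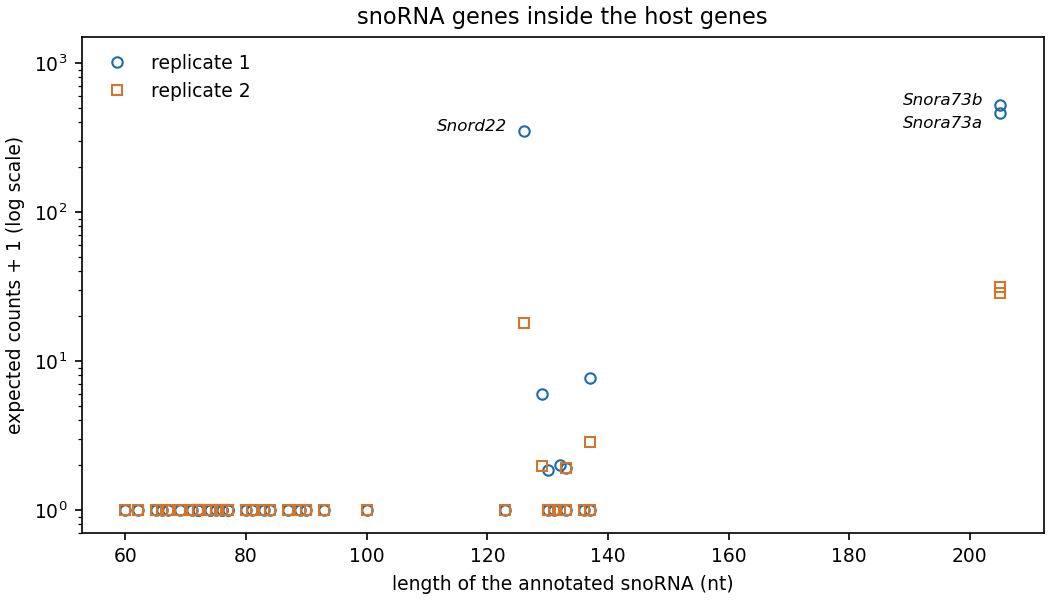
Expected counts plus 1 (log axis) of each of the 41 snoRNA genes inside the hosts against its annotated length in nt, in replicate 1 (circles) and replicate 2 (squares). All 26 snoRNAs shorter than 100 nt lie at 0 expected counts, and Snord22, Snora73a and Snora73b stand above the rest in both replicates.

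Relative to their host, the snoRNAs differed between replicates. The 2 Snora73 genes had 29.2 counts per count of Snhg3 in replicate 1 and 3.35 in replicate 2. Snord22 had 1.12 counts per count of Snhg1 in replicate 1 and 0.054 in replicate 2, while Snhg1 itself had 309 and 313 counts. In the FASTQ-derived tables Snora73b had 563 and 72.8 counts, Snora73a 501 and 71.3, and Snord22 459 and 45.7, so the order of the replicates was the same and the gap smaller. The annotated length of both Snora73 genes is 205 nt, beside mean fragments of 206 nt in replicate 1 and 230 nt in replicate 2, and the part of fragment length in these ratios was not tested. TPM is not a usable scale for these genes: Snord22 was given 12494 TPM in replicate 1 and 0 in replicate 2 despite 16.9 counts, with a listed effective length of 1.29 nt in the first.

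Snora73a and Snora73b differ at 7 of 205 positions (96.6% identical). Counted from 1 at the 5′ end, with the base of Snora73a first, these are G3A, G54A, A111G, T164C, G203A, T204A and T205A. Reads that cover none of these positions cannot be assigned to one copy, so the division of counts between them is uncertain. Their sum, 981 and 57.6, does not depend on that division. It may still share reads with Gm17300, a gene on the other strand described below, because the strand setting is not given. Snord22 lies inside exons of 3 Snhg1 models, and its reads may likewise be divided between gene and host.

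Several hosts share their start or span with another gene, which matters because the strand setting of the counting is not given in the sources used here. Gas5, Snhg1, Zfas1 and Taf1d start head to head with a protein-coding gene. Slc3a2, the heavy chain of CD98 amino acid transporters, starts 106 bp from Snhg1 and had 120 and 74.2 TPM, 7.69-fold the mean of Snhg1. Znfx1, a helicase-like zinc finger gene of antiviral defence, overlaps Zfas1 by 82 bp and had 43.3 and 25.3 TPM. Its log2 replicate ratio was -0.27, beside -0.26 for Zfas1. Zbtb37 overlaps Gas5 by 428 bp and was lower than it, at 6.97 and 4.09 TPM. Taf1d also exceeded its head-to-head partner, which had 3.27 and 2.25 TPM, and overlaps Cep295 (9.35 and 7.79 TPM), a centriole gene, by 77 bp at the other end.

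Snhg3 is the host most entangled with its neighbours. It shares 5592 bp and its strand with Rcc1, the exchange factor of the GTPase Ran, which had 2.43 and 1.01 TPM from 55 and 45 counts. On the other strand the lincRNA gene Gm17300, named here after its values were seen, spans both Snora73 copies and had 166 and 47.3 counts, a log2 ratio of -1.68. Reads of these genes, of Snhg3 and of the Snora73 copies may not be separable. The values and ratios of Snhg3 and of the Snora73 copies are uncertain to that extent. The remaining neighbours were low in the alignment-based tables. Mcmdc2, which overlaps Snhg6 by 127 bp, had 2.49 and 1.98 TPM, Trnau1ap beside Snhg12 3.85 and 3.65, Epb41l4a beside Epb41l4aos 0.40 and 0.17, and Prss12 beside Snhg8 0.08 and 0.06. The FASTQ-derived values of Mcmdc2 were higher, at 3.76 and 7.87 TPM, beside 3.39 and 3.31 for Snhg6.

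RefSeq (GRCm38.p6) start windows of 300 bases, 250 before to 50 after the start, were at hand for 8 hosts, in 9 windows. A run of at least 5 pyrimidines over the start base, as in genes of the translation machinery, was found for Gas5, Snhg8 and Snhg12, in 3 of 9 windows against 10.1% of 32851. Snhg1 had a run of 4. These starts are printed as 30 bases each, because the run is what the hosts' family is known for, with the pyrimidine run over the start in capitals.
Gas5 (chr1:161035151-161035180, + strand): agccgccatctcagCCTTTCggagctgtgc
Snhg8 (chr3:123508322-123508351, - strand): gcaccgttcagaagTCTCTTTggctgcgat
Snhg12 (chr4:132308663-132308692, + strand): ggccgttctcagTCCTTTCTCgcttcatcc
Snhg1 (chr19:8723472-8723501, + strand): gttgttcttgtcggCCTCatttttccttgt
Of the 25 Gas5 models, 13 start within 20 bases of the Gas5 position shown. On either strand, TATAAA was found in 4 of 9 host windows against 13.6% of all windows, GGGCGG in 7 against 35.7%, and CACGTG in 0 against 7.15%. A match is a description of letters and no evidence of a bound factor.

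The genes that act on snoRNAs and their hosts were present at modest levels. Of the 8 core proteins of box C/D and H/ACA particles, 7 were detected, with a median of 4.82 ± 1.48 TPM. They were led by Nop56 (16.1 and 13.4 TPM) and Nop58 (11.3 and 7.49), the box C/D scaffold proteins, and by Nhp2 (10.5 and 5.09), of H/ACA particles. Lowest were Gar1 (1.79 and 1.13) and Nop10 (1.13 and 0.83), also of H/ACA particles. Of 10 snoRNP assembly factors found, 3 were detected, Pih1d1 (7.18 and 4.08), Nolc1 (2.65 and 1.53) and Ruvbl2 (1.23 and 1.21, named for passing the detection rule), with a list median of 1.19 ± 0.33. Nufip1 had 1.54 and 0.96 TPM, and Rpap3 (0.68 and 0.55) and Znhit3 (0.36 and 0.43) were lowest. The FASTQ-derived values of Znhit3 were higher, at 2.80 and 2.96 TPM.

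Of 9 genes of intron release and trimming, 8 were detected, and the list median was 5.54 ± 1.09 TPM. The nuclear exonuclease gene Xrn2 led at 25.9 and 19.3 TPM, followed by Mtrex, the helicase of the nuclear exosome, at 19.3 and 11.7, and the cytoplasmic exonuclease gene Xrn1 at 18.3 and 12.0. The exosome nuclease gene Dis3 had 2.28 and 1.47 TPM. Lowest was Dbr1, which opens intron lariats, at 1.30 and 0.86. Nonsense-mediated decay genes were detected in 15 of 15 cases and had a median of 8.65 ± 0.92 TPM. The kinase gene Smg1 led at 57.4 and 47.0 TPM, followed by its partner Smg9 at 25.2 and 20.0. Lowest were Magoh (3.83 and 2.42) and Smg8 (2.96 and 2.92).

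Taf1d stood far above the other genes of its own pathway. The 12 genes of SL1 and RNA polymerase I transcription, all detected, had a median of 2.97 ± 0.75 TPM. Their highest was Ubtf, the upstream binding factor of ribosomal DNA, at 11.5 and 8.54 TPM, followed by Polr1d (6.94 and 4.51) and Ttf1 (3.84 and 5.94). The lowest were Polr1e (1.55 and 1.22) and Polr1b (1.23 and 1.17). The place of Polr1b was not stable: its FASTQ-derived values were 5.59 and 3.49 TPM, beside 5.53 and 5.54 for Ubtf. These values refer to whole genes, and the coding models of Taf1d took 2.99% and 2.57% of its TPM (2.74% and 4.27% in the FASTQ-derived tables).

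Other hosts put the 10 in context. Among the other Snhg genes, 4 of 8 were detected, and their median was 1.86 ± 0.62 TPM. They were led by Snhg15 (29.3 and 12.3 TPM), Snhg17 (4.90 and 3.40) and Snhg20 (4.43 and 3.76), and Snhg18 and Snhg9 were listed at 0 in the alignment-based tables. By FASTQ-derived values Snhg9 (2.74 and 2.40 TPM) and Snhg11 (2.91 and 2.83, named after its values were seen) also reached the detection level. The 29 protein-coding snoRNA hosts listed were all detected and had a median of 25.6 ± 5.20 TPM, above the 8.51 ± 4.14 of the 10 hosts described here, and the replicate medians did not overlap (29.3 and 21.9 against 10.5 and 4.61). They were led by the translation initiation helicase gene Eif4a1 (254 and 162 TPM), the chaperone gene Hspa8 (229 and 141) and the chromatin remodeller gene Chd4 (144 and 119). The lowest were Rcc1 (2.43 and 1.01) and Nol11 (1.90 and 1.24). The lists were chosen for their known members, with no test of the difference, and their genes are not replicates.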

How the data were processed

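The 2 libraries formed 1 group. The deposited alignment-based tables give expected counts, TPM and FPKM per gene and transcript model, with a posterior mean TPM and credibility bounds (treated as a score), per the file headers. The authors also deposited FASTQ-derived tables with estimated counts and TPM per model, which were summed per gene. Build mm10 and annotation GENCODE M21 are per the labels and files. For the aligner, quantifiers, versions and strand, nothing is given in the sources used here. Rows that name no gene (numeric, spike-in and phiX identifiers; 0.672% and 0.196% of counts) were left out.

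Ratios used rounded expected counts, TMM scaling and a prior count of 2 in edgeR 4.0.16 (R 4.3.3), over genes with a mean count of at least 10. The ratio step was checked on simulated data. DESeq2 1.42.0 gave the alternative size factors. Other values were computed in Python 3.11.15. A model holds a snoRNA where an exon contains the whole snoRNA gene. Log levels are log2(TPM + 1). Intervals cover counting error only, because each ratio sets 1 library against 1. The reads carry no molecular identifiers, and the intervals leave duplicate reads out of account.

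The members and lists were chosen with earlier results of these data known. All 10 hosts are named, and of each other list the 3 highest and 2 lowest genes by mean TPM, except where a gene is not reported here. Named neighbours overlap a host, start head to head with it or lie within 1000 bases of it. Of the snoRNAs, those with a mean count of at least 10 are named. Nopchap1 and Papd5 were not matched in the annotation. The alternatives tried were another detection threshold, FPKM, posterior mean TPM, FASTQ-derived values, rescaled TPM, other pseudocounts and scalings, and single replicates.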

Additional observations from a re-analysis of the deposited data

How the results depend on the processing

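All 10 hosts were detected at a TPM of 0.5, in the FASTQ-derived tables and in each replicate alone, and 4 at a TPM of 5. The share of all genes was computed for 1 TPM in both replicates alone (19.4%, and 25.0% in the FASTQ-derived tables). The counts at 0.5 and 5 TPM and in single replicates therefore have no such share to be set against. The median level of 8.51 TPM (SD 4.14) was 4.20 in the FASTQ-derived tables and 31.7 when TPM was rescaled over genes of an effective length of at least 200, where Epb41l4aos had no value. By FPKM it was 10.3, by posterior mean TPM 8.64, and in single replicates 4.61 to 10.5. On the log2(TPM + 1) scale the hosts' median lay -0.058 from the median detected protein-coding gene and 2.60 from the median of all protein-coding genes. The median replicate ratio of -0.19 was -0.74 on log2(TPM + 1), a scale on which all detected genes shift by -0.41, and lay between -0.18 and -0.12 with DESeq2 size factors, no count filter, FASTQ-derived counts or without Snhg8 (the last chosen after seeing the data). Among single hosts, 30 of 30 ratios under other scalings or count tables stayed within 0.36, and 7 ratios on log2(TPM + 1) did not. The 0.36 is the log2 spread of a single gene's ratio computed from the common coefficient of variation. Size factors and the count filter shift all ratios almost alike, so of the 30 only those from FASTQ-derived counts could have moved far. Signs differed for Snhg1 (-0.09, FASTQ-derived counts) and Snhg6 (-0.32, log2(TPM + 1)). The retained-intron share of 42.2% was 74.9% by counts, 38.7% by FASTQ-derived TPM, 57.7% for models holding a snoRNA (chosen after seeing the data), and 41.0% to 43.3% in single replicates. The counts on snoRNAs inside hosts ranged from 78.2 to 1343 between replicates, with a mean of 710.4, and had a mean of 918 in the FASTQ-derived tables. No paired analysis was possible because there was only 1 group. Depth limits Epb41l4aos and Snhg3 most, with 14 to 33.6 counts a library.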
